A study of Mus musculus with 6 samples.

Results

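The genes described here are those of the ATF4 stress response and of the amino acid programme it drives, read in RNA sequencing libraries of C2C12, an established mouse myoblast line that fuses into myotubes after a change of serum. They were chosen by symbol from a list of 42 known targets and partners of ATF4: 7 regulators, 6 stress effectors, 3 secreted factors, 12 enzymes of amino acid and one-carbon metabolism, 9 amino acid transporters and 5 tRNA synthetases. Of these, 41 had a row among the 43074 gene symbols of the count table, and 40 passed the filter on low counts that left 17433 genes for testing. Ddit3 was not analysed here, and Cbs, with 1 to 8 counts in a library, was too low to test. Alanyl, glycyl, seryl and asparaginyl tRNA synthetase were listed as Aars, Gars, Sars and Nars, and are called here Aars1, Gars1, Sars1 and Nars1. The study has 3 groups of wild-type C2C12 cells with 2 libraries each. The day 0 libraries came from untreated cells. The other cells spent 4 days in medium with horse serum, which induces differentiation, together with the vehicle DMSO or with 4-phenylbutyric acid (4-PBA) at 1 mM. This short aromatic acid is used to ease protein misfolding and also blocks histone deacetylases. Cells of day 4 differ from those of day 0 in time in culture, medium, added compound and differentiation at once. Those parts cannot be told apart, and a change in differentiation below means a difference between DMSO at day 4 and day 0.

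ATF4 is a basic leucine zipper transcription factor whose translation rises when stress kinases phosphorylate the initiation factor eIF2, for example after amino acid shortage or misfolding in the endoplasmic reticulum. Because much of its control is on translation, its mRNA level is only part of its activity, which was not measured here. With partners of the C/EBP family it binds composite elements in promoters and switches on enzymes, transporters and tRNA synthetases that restore amino acid supply, as well as feedback inhibitors such as Trib3 and Ppp1r15a. In muscle the same response is known for the release of the hormones FGF21 and GDF15.

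Promoter sequences are shown because the letter pattern of a known ATF4 element occurs in some of them. The genes were chosen as known targets and partners of ATF4, so the share with the pattern is not independent of that choice. Windows from 250 bases before to 50 bases after the start were taken from RefSeq on build GRCm38.p6 and matched by symbol for 33 of the 41 genes. They were searched on both strands for the core of the C/EBP-ATF composite element, TGATGNAA, which reads TTNCATCA on the other strand and is not its own reverse complement. It occurred in 12 of the 33 genes (36.4%), against 1219 of 27025 genes in the whole promoter table (4.51%). The 12 were Asns, Pycr1, Pck2, Nupr1, Trib3, Chac1, Vldlr, Fgf21, Slc7a11, Slc1a4, Aars1 and Gars1. None of the 5 serine and one-carbon enzymes with a window held it. Slc7a11 held it at 2 places before the start, and Aars1 once before and once after. A match describes letters, not binding, and a window without one says only that these letters are not in it. The 8 stretches below hold the match in capitals, with up to 30 bases on each side. They comprise Pck2 and Trib3, which were called with 4-PBA, and then the genes with the smallest adjusted p between DMSO and day 0, and all but Trib3 end before the start.
Pck2: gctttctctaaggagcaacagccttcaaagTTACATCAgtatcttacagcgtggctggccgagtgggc
Pycr1: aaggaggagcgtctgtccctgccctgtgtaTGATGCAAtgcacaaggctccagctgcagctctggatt
Nupr1: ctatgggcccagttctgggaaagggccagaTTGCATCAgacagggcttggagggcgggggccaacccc
Fgf21: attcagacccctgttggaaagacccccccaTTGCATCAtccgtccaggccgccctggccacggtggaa
Aars1: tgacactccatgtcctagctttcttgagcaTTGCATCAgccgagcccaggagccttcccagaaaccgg
Vldlr: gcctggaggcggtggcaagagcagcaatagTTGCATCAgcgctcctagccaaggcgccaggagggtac
Asns: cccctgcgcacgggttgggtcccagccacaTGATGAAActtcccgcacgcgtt
Trib3: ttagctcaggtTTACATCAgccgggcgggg
Counted from the start, the match began at position -103 in both Pck2 (chr14:55540133-55540200, plus strand) and Pycr1 (chr11:120643814-120643881, minus strand), and at -110 in Nupr1 (chr7:126625543-126625610, minus strand). It began at -139 in Fgf21 (chr7:45615592-45615659, minus strand), at -112 in Aars1 (chr8:111033700-111033767, plus strand) and at -200 in Vldlr (chr19:27216790-27216857, plus strand). In Asns (chr6:7693210-7693262, minus strand) it began at -23, and in Trib3 (chr2:152344028-152344057, minus strand) it lay after the start, at position 15. The same 8 letters, read as TTGCATCA, stood in Nupr1, Fgf21, Aars1 and Vldlr, and Pycr1 held them on the other strand as TGATGCAA, while Pck2 and Trib3 shared TTACATCA.

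Total counts per library ranged from 47908926 to 74697397. Levels are CPM, counts scaled by TMM to the size of each library and given on the usual CPM scale, so counting error is small for all but the rarest genes and the 2 libraries a group limit the precision. The labels do not say whether the 2 libraries came from separate cultures, so p-values measure the spread between these libraries. For a typical gene that spread was estimated mainly from all genes together, not from the gene alone. Differences were tested with edgeR's quasi-likelihood test, and a gene is said to have risen or fallen where the Benjamini-Hochberg adjusted p over all 17433 genes was under 0.05. The muscle markers Myod1, Myf5, Des, Myog, Mymk, Myh3, Tnnt3, Acta1 and Ckm summed to 1114 and 1120 CPM at day 0, and to between 6954 and 7502 CPM in the 4 libraries of day 4. Of 16 markers of fat, blood, vessel and epithelial cells, the macrophage list summed to at most 6.11 CPM, the endothelial list to at most 0.883 CPM and the epithelial list to at most 0.789 CPM in any library. The adipocyte list summed to 49.0 to 83.8 CPM, nearly all of it Lpl, which muscle cells also express, while Adipoq had at most 7 counts in a library. The 6 proliferation markers Mki67, Top2a, Ccnb1, Cdk1, Mcm5 and Pcna summed to 1761 and 1794 CPM at day 0, to 557 and 478 CPM with DMSO, and with 4-PBA to 593 and 601 CPM. They moved with the changes described next, and their part in them was not tested. In these bulk libraries, fewer cells that express a gene and less of its RNA per cell cannot be told apart.

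**Figure D1:**
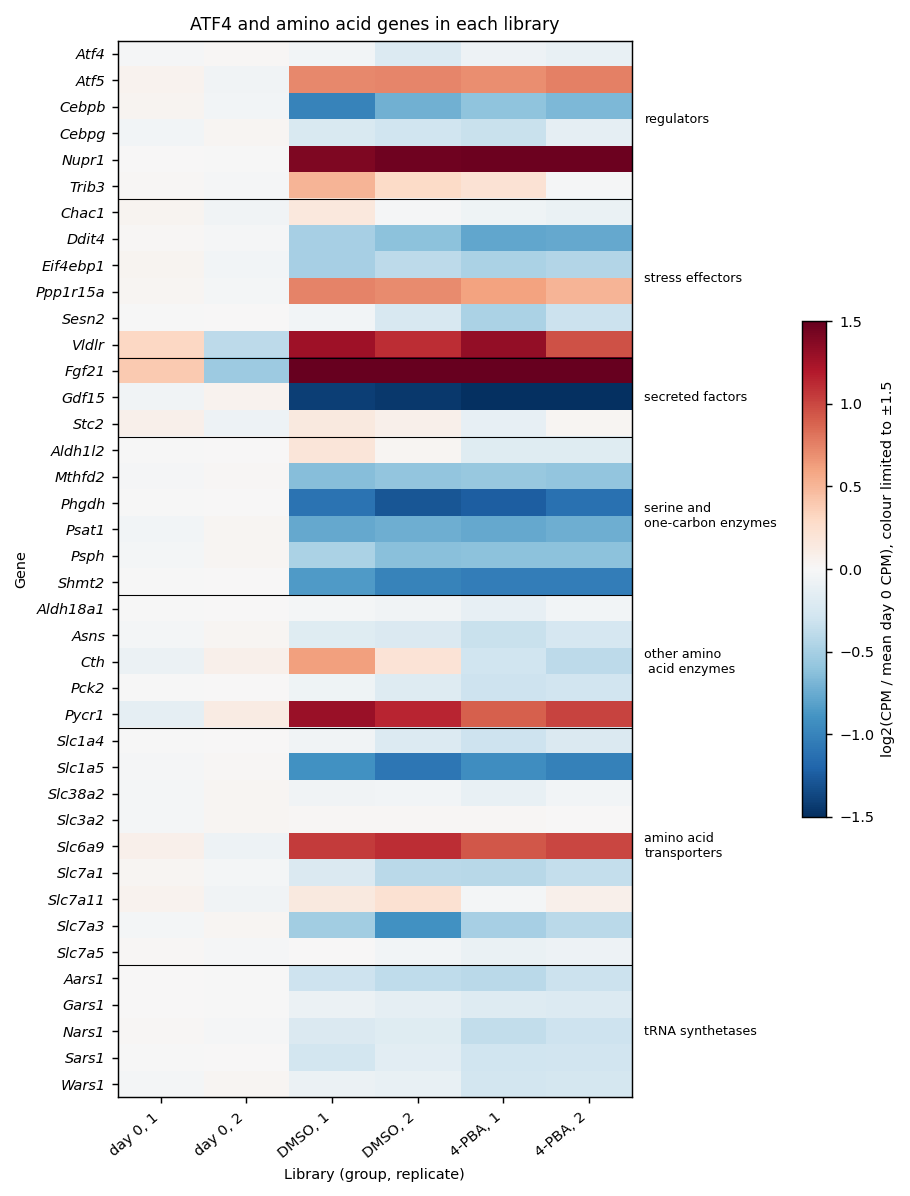
Level of each of the 40 tested genes (rows, grouped by role) in each of the 6 libraries (columns), as log2 of CPM over the mean day 0 CPM, with the colour limited to 1.5 either way. Serine enzymes are blue in all 4 libraries of day 4, Atf5, Nupr1, Fgf21, Pycr1 and Slc6a9 are red in all 4, and Cth is red with DMSO and blue with 4-PBA.

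After 4 days of differentiation with DMSO, serine enzymes and tRNA synthetases were lower than at day 0, and several stress regulators were higher. Between DMSO at day 4 and day 0, 32 of the 40 genes were called, 22 lower and 10 higher, where 66.3% of all tested genes were called, 32.6% lower and 33.8% higher. The median log2 fold change of the 40 genes was -0.13, against 0.023 over all tested genes, and 26 of the 40 had a value below 0 where 48.6% of all tested genes did. The libraries of the groups did not overlap for 37 of the 40, with DMSO lower in 25 and higher in 12, where 81.9% of all tested genes were apart, and 39.9% were apart with DMSO lower. By role, 5 of 6 serine and one-carbon enzymes fell and 1 rose, 5 of 5 tRNA synthetases fell, and 4 of 9 transporters fell and 1 rose, and the 6 tested regulators split into 3 higher and 3 lower. The stress effectors split into 2 higher and 2 lower, with 2 not called.

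The serine and one-carbon enzymes had the lowest median of the roles, at -0.68, and 5 of the 6 fell. Phgdh, the first enzyme of serine synthesis from glycolysis, stood at 291 and 295 CPM at day 0 and at 136 and 120.5 CPM with DMSO (a log2 fold change of -1.19, SE 0.0546, adjusted p 2.79e-09). Psat1, the aminotransferase of the next step, stood at 344 and 362 CPM and then at 207 and 213 CPM (-0.75, SE 0.0321, adjusted p 5.89e-21). Psph, the phosphatase that releases serine, went from 41.1 and 42.8 CPM to 30.1 and 27.2 CPM (-0.55, SE 0.0587, adjusted p 2.49e-10). The whole 3-step serine pathway was therefore lower in both libraries with DMSO than in either library of day 0. In mitochondria, Shmt2 turns serine into glycine and a one-carbon unit; it stood at 268 and 269 CPM and then at 148 and 133 CPM (-0.93, SE 0.0379, adjusted p 7.45e-19). Mthfd2, the next folate enzyme, went from 114 and 117 CPM to 74.2 and 76.9 CPM (-0.61, SE 0.0388, adjusted p 3.92e-16). The exception was Aldh1l2, the mitochondrial formyl-folate dehydrogenase, at 72.9 and 73.5 CPM and then at 83.4 and 75.02 CPM (0.11, SE 0.0451, adjusted p 0.0287). Its rise was small and rested on DMSO replicate 1, without which the log2 fold change was 0.036 (adjusted p 0.532). It was also not called without day 0 replicate 1 (0.10) or 2 (0.12), with library size only (0.084), with DESeq2 (0.10) or in a fit of the 4 libraries compared (0.10). In GENCODE M21 an antisense gene covers 14.1% of the exons of Aldh1l2 and 10.4% of those of Psph, and the sources used here do not say whether counting used strand.

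Other amino acid enzymes moved apart from one another. Pycr1, which makes proline, stood at 6.60 and 7.93 CPM at day 0 and at 17.9 and 16.0 CPM with DMSO, a log2 fold change of 1.21 (SE 0.0946, adjusted p 1.69e-13). Aldh18a1, the enzyme that starts proline synthesis from glutamate, stayed between 92.7 and 96.9 CPM in these 4 libraries and was not called. Of the 2 proline enzymes, 1 was thus called, at 2.31-fold its day 0 level. Cth, the cystathionine lyase that makes cysteine, stood at 5.76 and 6.47 CPM and then at 9.40 and 7.04 CPM (0.42, SE 0.128, adjusted p 0.00498). The size of that rise depended on DMSO replicate 1, without which it was 0.20 (adjusted p 0.255), and it was 0.34 (adjusted p 0.0706) without day 0 replicate 1. Cbs, the enzyme before Cth in the same pathway, had at most 8 counts in any library. Asns, the asparagine synthetase, went from 113 and 117 CPM to 101 and 98.4 CPM (-0.20, SE 0.0387, adjusted p 2.55e-05). Pck2, the mitochondrial phosphoenolpyruvate carboxykinase, went from 93.9 and 94.0 CPM to 89.5 and 82.0 CPM (-0.13, SE 0.0416, adjusted p 0.00560). Without DMSO replicate 2 the value of Pck2 was -0.071 (adjusted p 0.165).

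Among the transporters, the carriers of small neutral amino acids parted. Slc1a5, a glutamine and neutral amino acid exchanger, stood at 49.2 and 50.3 CPM at day 0 and at 26.4 and 23.5 CPM with DMSO (a log2 fold change of -0.998, SE 0.0597, adjusted p 8.16e-17). Slc6a9, the glycine transporter, stood at 21.2 and 19.2 CPM and then at 41.7 and 43.5 CPM (1.08, SE 0.0600, adjusted p 9.33e-18). Thus the glycine carrier rose while Shmt2, a mitochondrial enzyme that makes glycine, fell, each with no overlap between the groups. Ccdc24 on the opposite strand covers 27.8% of the exon length of Slc6a9, so part of its reads may belong to that gene if strand was not used. Slc7a1, a carrier of arginine and lysine, fell by 0.31 on the log2 scale (SE 0.0481, adjusted p 3.13e-05), from 165 and 159.9 CPM to 140.0 and 123 CPM. Its paralog Slc7a3 was low throughout, at 1.34 and 1.40 CPM at day 0 and at 0.951 and 0.728 CPM with DMSO, a log2 fold change of -0.71 (SE 0.274, adjusted p 0.0222). Slc1a4, a further neutral amino acid exchanger, had a log2 fold change of -0.13 (SE 0.0527, adjusted p 0.0298). Neither of these last 2 calls was stable: without DMSO replicate 2 the value was -0.53 (adjusted p 0.187) for Slc7a3 and -0.053 (adjusted p 0.440) for Slc1a4. Without day 0 replicate 2 it was -0.67 (adjusted p 0.0939) for Slc7a3 and -0.12 (adjusted p 0.132) for Slc1a4, and without day 0 replicate 1 it was -0.14 (adjusted p 0.0805) for Slc1a4. DESeq2 called neither Slc7a3 (adjusted p 0.0632) nor Slc1a4 (adjusted p 0.0582). The 3 transporters with the highest level per kilobase of exon, Slc38a2, Slc7a5 and Slc3a2, did not pass the test. Slc38a2 (SNAT2) stayed between 527 and 557 CPM in the day 0 and DMSO libraries. Slc7a5 (LAT1) stayed between 189 and 197 CPM, and its heavy chain Slc3a2 between 143 and 148 CPM. Slc7a11, the cystine carrier that pairs with Slc3a2, stood at 9.88 and 9.23 CPM and then at 10.6 and 11.2 CPM, also not called.

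All 5 tRNA synthetases of the list fell by small steps. Aars1 went from 317 and 314 CPM at day 0 to 254 and 242 CPM with DMSO (a log2 fold change of -0.35, SE 0.0328, adjusted p 1.84e-11), the largest fall of the 5. The log2 fold change was -0.21 (SE 0.0339) for Sars1, -0.20 (SE 0.0304) for Nars1, -0.12 (SE 0.0307) for Gars1 and -0.10 (SE 0.0373, adjusted p 0.0182) for Wars1. Wars1 was not called without day 0 replicate 2 (-0.066, adjusted p 0.258) or without DMSO replicate 2 (-0.086, adjusted p 0.0688). Exosc6 on the same strand shares 14.3% of the exon length of Aars1. The fall extended to the remaining cytosolic synthetases: 15 of 15 were called lower, where 32.6% of all tested genes were. Those with the smallest adjusted p were Vars1, for valine, from 334 and 331 CPM to 164 and 154 CPM (-1.07, SE 0.0338, adjusted p 7.36e-25), and Rars1, for arginine (-0.61, SE 0.0354, adjusted p 3.03e-17). Of 17 mitochondrial synthetases, 11 were lower and 2 higher, with a median log2 fold change of -0.25 against -0.33 for the 15 cytosolic ones.

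**Figure D2:**
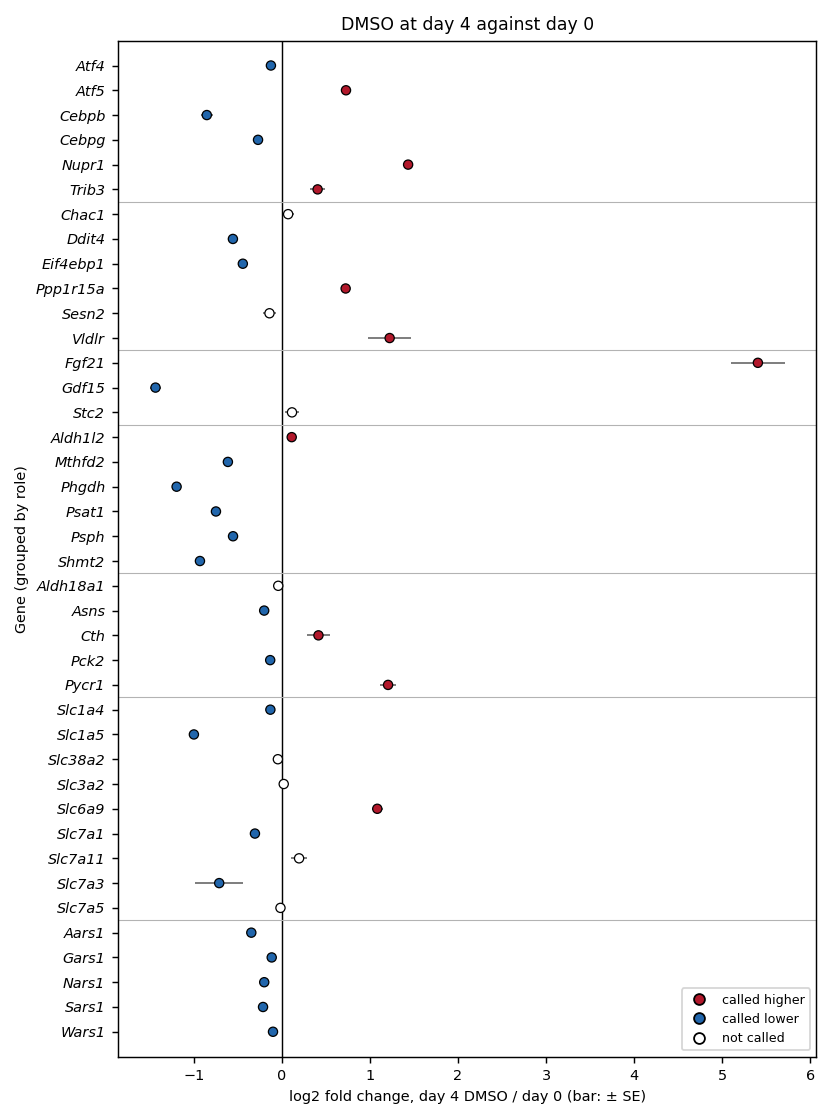
Log2 fold change between DMSO at day 4 and day 0 for each of the 40 tested genes (points) with its standard error (bars), grouped by role and coloured by call. Fgf21 lies far to the right at 5.40, the serine and one-carbon enzymes other than Aldh1l2 lie between -1.19 and -0.55, and the tRNA synthetases sit just left of 0.

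The regulators and effectors moved in both directions. Atf4 itself stood at 359 and 365 CPM at day 0 and at 351 and 314 CPM with DMSO, a small fall (log2 fold change -0.12, SE 0.0393, adjusted p 0.00964). DMSO replicate 2 carried it, for without that library the value was -0.046 (adjusted p 0.199), and without day 0 replicate 2 it was -0.11 (adjusted p 0.0729). Atf5, a related factor also under translational control, stood at 117 and 108 CPM and then at 185 and 187 CPM (0.73, SE 0.0363, adjusted p 6.25e-19). Nupr1, a small stress-induced nuclear protein, stood at 22.5 CPM in both day 0 libraries and at 59.4 and 62.1 CPM with DMSO (1.43, SE 0.0506, adjusted p 1.81e-23). Trib3, the pseudokinase that restrains ATF4 output, went from 18.2 and 17.7 CPM to 25.7 and 22.0 CPM (0.41, SE 0.0817, adjusted p 8.22e-05). These 3 rose while the C/EBP partners fell. Cebpb went from 43.3 and 40.9 CPM to 21.0 and 25.5 CPM (-0.85, SE 0.0712, adjusted p 1.03e-10), and Cebpg from 40.6 and 42.6 CPM to 35.4 and 33.7 CPM (-0.27, SE 0.0592, adjusted p 1.57e-04). Tmem189 on the opposite strand shares 20.7% of the exon length of Cebpb.

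Ppp1r15a, the phosphatase subunit that reverses eIF2 phosphorylation, rose from 36.2 and 34.6 CPM at day 0 to 59.1 and 57.6 CPM with DMSO (a log2 fold change of 0.72, SE 0.0502, adjusted p 4.99e-15). Vldlr, a lipoprotein receptor, was higher from a low level, 1.15 and 0.712 CPM against 2.25 and 2.01 CPM (1.22, SE 0.247, adjusted p 4.69e-05). Ddit4, an inhibitor of mTORC1, fell from 43.6 and 42.7 CPM to 30.6 and 28.1 CPM (-0.56, SE 0.0573, adjusted p 1.31e-10). Eif4ebp1, a repressor of cap-dependent translation, fell from 116 and 109.5 CPM to 79.8 and 86.2 CPM (-0.44, SE 0.0415, adjusted p 2.08e-11). Chac1, which breaks down glutathione, was not called at 30.3 and 28.4 CPM against 32.7 and 29.0 CPM (0.072, SE 0.0636, adjusted p 0.332), and its value was -0.016 without DMSO replicate 1 and 0.16 (adjusted p 0.0422) without DMSO replicate 2. Sesn2, a further brake on mTORC1, was not called either, at 29.4 and 29.6 CPM against 28.7 and 24.9 CPM. So of the 2 mTORC1 inhibitors in the list only Ddit4 passed the test, and the difference between them was not tested.

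The 2 stress hormones went opposite ways. Fgf21 had 8 and 6 counts at day 0 (0.165 and 0.0855 CPM) and 256 and 451 counts with DMSO (4.06 and 6.08 CPM), a 42.4-fold rise (log2 fold change 5.40, SE 0.304, adjusted p 1.38e-16). Gdf15 fell from 41.9 and 45.2 CPM to 16.3 and 15.9 CPM (-1.43, SE 0.0652, adjusted p 3.12e-20). Both differences left a gap between the groups, and per kilobase of exon the mean level with DMSO was 5.33 CPM for Fgf21 and 8.71 CPM for Gdf15. Stc2, a secreted glycoprotein, was not called at 14.7 and 13.3 CPM against 15.5 and 14.7 CPM.

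Between 4-PBA and DMSO at day 4, 9 of the 40 genes were called and each was lower with the drug, where 4.90% of all tested genes were called, 2.78% lower and 2.13% higher. The 9 were the enzymes Cth, Aldh1l2 and Pck2, the effectors Sesn2, Ddit4 and Ppp1r15a, the regulator Trib3 and the synthetases Nars1 and Wars1. No transporter and no secreted factor was called. Over the 40 genes 31 had a log2 fold change below 0, against 49.4% of all tested genes, and the median was -0.082, against 0.0021. Both 4-PBA libraries lay below both DMSO libraries for 22 of the 40 genes and above them for 4, where 45.5% of all tested genes were apart, 22.5% lower and 23.0% higher. An unadjusted p under 0.05 was found for 19 of the 40 genes and for 16.7% of all tested genes. With all 6 libraries and the filter on low counts, no gene of the list was called higher by edgeR, DESeq2 or limma-voom.

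Cth had the largest change. It stood at 9.40 and 7.04 CPM with DMSO (593 and 522 counts) and at 4.96 and 4.67 CPM with 4-PBA (308 and 290 counts), a fall of 41.2% (log2 fold change -0.77, SE 0.131, adjusted p 2.68e-04). Both 4-PBA libraries also lay below the day 0 libraries, at 5.76 and 6.47 CPM, so the level that had risen with DMSO was under its starting level with the drug. Aldh1l2 showed the same order, at 83.4 and 75.02 CPM with DMSO, 64.5 and 64.6 CPM with 4-PBA and 72.9 and 73.5 CPM at day 0 (4-PBA against DMSO -0.29, SE 0.0452, adjusted p 6.42e-05). Between 4-PBA and DMSO these 2 genes were called under all 14 alternative fits that were run, including those that left out 1 library. Their order against day 0 was less stable. The rise from day 0 to DMSO lost its call in 6 of the 14 fits for Aldh1l2 and in 2 for Cth. The fall of Cth from day 0 to 4-PBA lost its call in 4.

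The other 7 falls were between 9.26% and 18.8%, and all lost their call when some library was left out. Trib3 stood at 25.7 and 22.0 CPM with DMSO against 21.0 and 17.7 CPM with 4-PBA (a log2 fold change of -0.30, SE 0.0808, adjusted p 0.0263), beside 18.2 and 17.7 CPM at day 0. Sesn2 stood at 28.7 and 24.9 CPM and at 21.3 and 23.6 CPM (-0.26, SE 0.0696, adjusted p 0.0253). Ddit4 stood at 30.6 and 28.1 CPM and at 25.2 and 25.3 CPM (-0.22, SE 0.0591, adjusted p 0.0243). Both of these mTORC1 inhibitors were thus lowest in the 4-PBA libraries of all 6. Ppp1r15a stood at 59.1 and 57.6 CPM with DMSO against 53.9 and 50.3 CPM with 4-PBA (-0.16, SE 0.0486, adjusted p 0.0407), still above its 36.2 and 34.6 CPM at day 0. Pck2 stood at 89.5 and 82.0 CPM and at 75.5 and 76.8 CPM (-0.17, SE 0.0418, adjusted p 0.0105). The synthetases had the tightest libraries: Nars1 went from 308 and 314 CPM to 277 and 287 CPM (-0.14, SE 0.0304, adjusted p 0.00365), and Wars1 from 104 and 102 CPM to 90.9 and 92.0 CPM (-0.17, SE 0.0375, adjusted p 0.00470).

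Without DMSO replicate 1 the values were -0.19 (adjusted p 0.214) for Trib3, -0.15 (adjusted p 0.287) for Sesn2, -0.16 (adjusted p 0.169) for Ddit4, -0.15 (adjusted p 0.0933) for Ppp1r15a and -0.11 (adjusted p 0.148) for Pck2. Without 4-PBA replicate 1 they were -0.18 (adjusted p 0.382) for Sesn2, -0.21 (adjusted p 0.189) for Ddit4, -0.21 (adjusted p 0.0695) for Ppp1r15a, -0.16 (adjusted p 0.159) for Pck2, -0.11 (adjusted p 0.195) for Nars1 and -0.16 (adjusted p 0.0990) for Wars1. Without 4-PBA replicate 2 they were -0.18 (adjusted p 0.425) for Trib3, -0.22 (adjusted p 0.153) for Ddit4, -0.12 (adjusted p 0.478) for Ppp1r15a, -0.18 (adjusted p 0.0792) for Pck2 and -0.18 (adjusted p 0.0602) for Wars1. Ppp1r15a also lost its call without either day 0 library (adjusted p 0.0622 and 0.0565) and with library size only (0.0569), DESeq2 called neither it (0.0914) nor Trib3 (0.0520) nor Sesn2 (0.0599), and limma-voom did not call Sesn2 (0.0516). In total 6 of the 40 genes were called lower when DMSO replicate 1 was left out and 15 when its replicate 2 was, and 3 and 4 without 4-PBA replicates 1 and 2. Of the 40 genes, 14 were higher in 4-PBA replicate 1 than in its replicate 2, with a median difference of -0.022 on the log2 scale. Over all tested genes the share was 50.3% and the median 2.14e-04. The 2 DMSO libraries also differed over the 40 genes: 28 of 40 were higher in replicate 1, by a median of 0.060 on the log2 scale, against 51.5% of all tested genes and a median of 0.0047. The proliferation markers were also higher in that library, at 557 against 478 CPM, and highest of the day 4 libraries with 4-PBA, at 593 and 601 CPM. With 4-PBA 1 of the 6 was called higher than with DMSO, as were 2.13% of all tested genes. All 6 lay higher in both 4-PBA libraries, where 23.0% of all tested genes did. In edgeR 5 of the 6 had an unadjusted p under 0.05, against 16.7% of all tested genes. Of the 9 muscle markers 3 were called lower with 4-PBA, as were 2.78% of all tested genes. Both 4-PBA libraries lay below both DMSO libraries for 5 of the 9 and above them for 1, against 22.5% and 23.0% of all tested genes. The part of these differences in the comparison with 4-PBA was not tested.

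**Figure D3:**
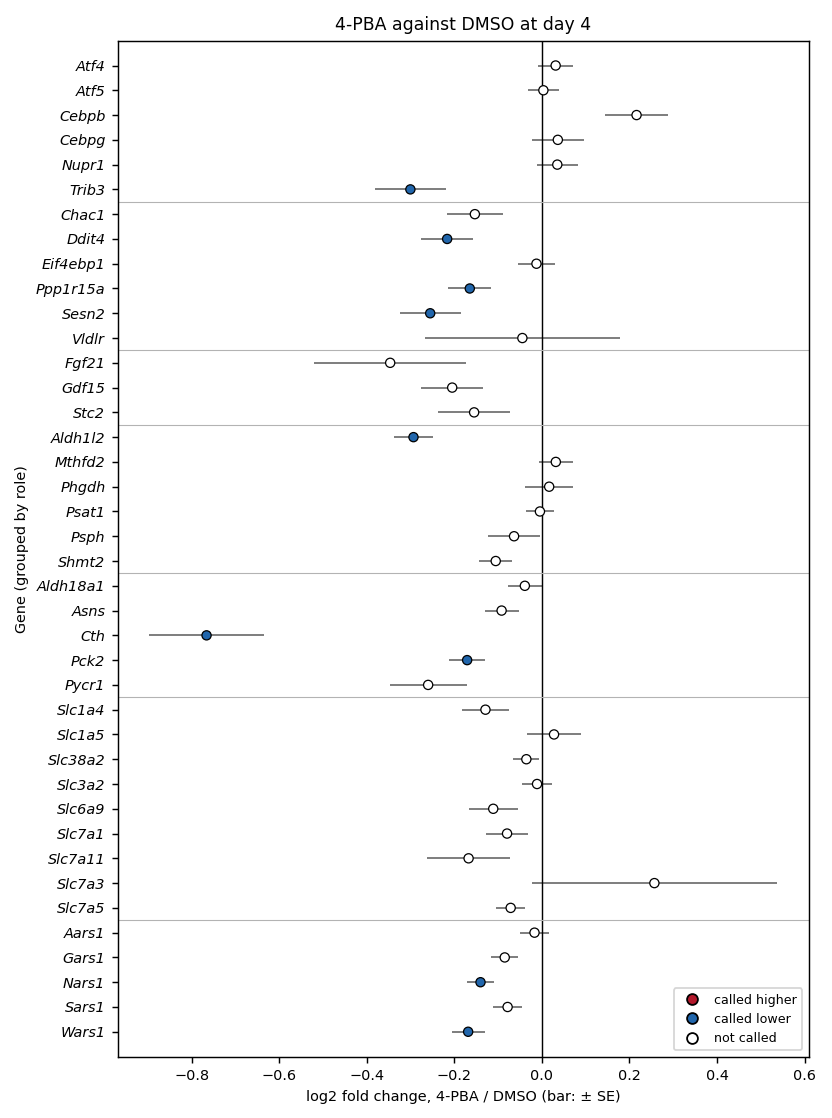
Log2 fold change between 4-PBA and DMSO at day 4 for each of the 40 tested genes (points) with its standard error (bars), grouped by role and coloured by call. The 9 called genes are all left of 0, with Cth alone at -0.77 and the other 8 between -0.30 and -0.14, while Atf4, Atf5 and Nupr1 lie close to 0.

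No regulator other than Trib3 was called. Atf4 stood at 351 and 314 CPM with DMSO against 342 and 336 CPM with 4-PBA, inside the DMSO range (log2 fold change 0.031, SE 0.0393, 95% interval -0.051 to 0.11, adjusted p 0.782). Its direction depended on the DMSO library, at 0.11 (adjusted p 0.0101) without replicate 1 and -0.046 (adjusted p 0.514) without replicate 2. Atf5 stood at 185 and 187 CPM and at 182 and 191 CPM (0.0034, 95% interval -0.069 to 0.076, adjusted p 0.980). Nupr1 stood at 59.4 and 62.1 CPM and at 62.3 CPM in both 4-PBA libraries, and Cebpg at 35.4 and 33.7 CPM and at 33.0 and 37.9 CPM. Cebpb lay higher in both drug libraries, at 27.6 and 26.5 CPM against 21.0 and 25.5 CPM in the DMSO libraries, but was not called. It passed in a fit without the filter on low counts (log2 fold change 0.21, adjusted p 0.0152) and without DMSO replicate 2 (0.37, adjusted p 1.01e-04).

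Of the 5 serine and one-carbon enzymes that fell in differentiation, none was called between the drug and DMSO, although Shmt2 was called lower without DMSO replicate 2. Psat1 stood at 207 and 213 CPM with DMSO against 207 and 212 CPM with 4-PBA. Phgdh stood at 136 and 120.5 CPM and at 124 and 135 CPM, and Mthfd2 at 74.2 and 76.9 CPM and at 77.6 and 76.9 CPM. In none of these 3 genes was the difference called. Only in Mthfd2 did the groups not overlap, and there replicate 2 stood at 76.86 CPM with DMSO and at 76.90 CPM with 4-PBA, nearly a tie. Psph stood at 30.1 and 27.2 CPM and at 27.3 and 27.4 CPM, and Shmt2, with no overlap, at 148 and 133 CPM and at 131 CPM in both 4-PBA libraries. Asns was not called at 101 and 98.4 CPM against 90.7 and 96.6 CPM (log2 fold change -0.092, SE 0.0389, adjusted p 0.201), although its libraries did not overlap. Pycr1 stood at 17.9 and 16.0 CPM and at 13.6 and 14.7 CPM, and Aldh18a1 at 94.8 and 92.7 CPM and at 88.8 and 93.7 CPM. For Pycr1 the libraries did not overlap, but the test gave no call except without the filter on low counts or without DMSO replicate 2.

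Among effectors and secreted factors that were not called, Chac1 stood at 32.7 and 29.0 CPM with DMSO against 28.0 and 27.4 CPM with 4-PBA (a log2 fold change of -0.15, SE 0.0635, adjusted p 0.189), and was called only without DMSO replicate 2 (-0.24, adjusted p 0.0210). Gdf15 stood at 16.3 and 15.9 CPM and at 13.9 and 14.1 CPM, and Stc2 at 15.5 and 14.7 CPM and at 12.9 and 14.2 CPM. Both of these lay lower in both 4-PBA libraries. Fgf21 stood at 4.06 and 6.08 CPM with DMSO against 4.25 and 3.75 CPM with 4-PBA, and the 2 groups overlapped, but it was called lower without DMSO replicate 1. Eif4ebp1 (79.8 and 86.2 against 81.6 and 83.05 CPM) and Vldlr (2.25 and 2.01 against 2.32 and 1.80 CPM) overlapped.

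None of the 9 transporters was called between 4-PBA and DMSO by edgeR, DESeq2 or limma-voom, and 2 had an unadjusted p under 0.05 in edgeR. Slc7a1 and Slc1a4 were called lower without DMSO replicate 2. The log2 fold changes of the 9 had a median of -0.071, against 0.0021 over all tested genes, and 5 lay lower in both 4-PBA libraries, as did 22.5% of all tested genes. Slc6a9 stood at 41.7 and 43.5 CPM with DMSO against 38.6 and 40.4 CPM with 4-PBA. Slc7a5 stood at 195 and 189 CPM and at 182 and 184 CPM. Slc1a4 stood at 49.3 and 44.1 CPM and at 41.3 and 44.0 CPM, and Slc7a11 at 10.6 and 11.2 CPM and at 9.36 and 10.1 CPM. Slc3a2, the partner chain of both Slc7a5 and Slc7a11, had a nearly equal level, at 147.7 and 147.6 CPM against 147.2 and 145.8 CPM. The groups overlapped for Slc38a2, Slc7a1 and Slc1a5, and Slc7a3 lay higher with 4-PBA at 0.966 and 1.03 CPM against 0.951 and 0.728 CPM. Of the synthetases not called, Gars1 stood at 264 and 255 CPM and at 246 and 244 CPM, Sars1 at 217 and 235 CPM and at 213 and 215 CPM, and Aars1 at 254 and 242 CPM and at 238 and 252 CPM. Gars1 was called lower without DMSO replicate 2, and Sars1 without DMSO replicate 1.

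**Figure D4:**
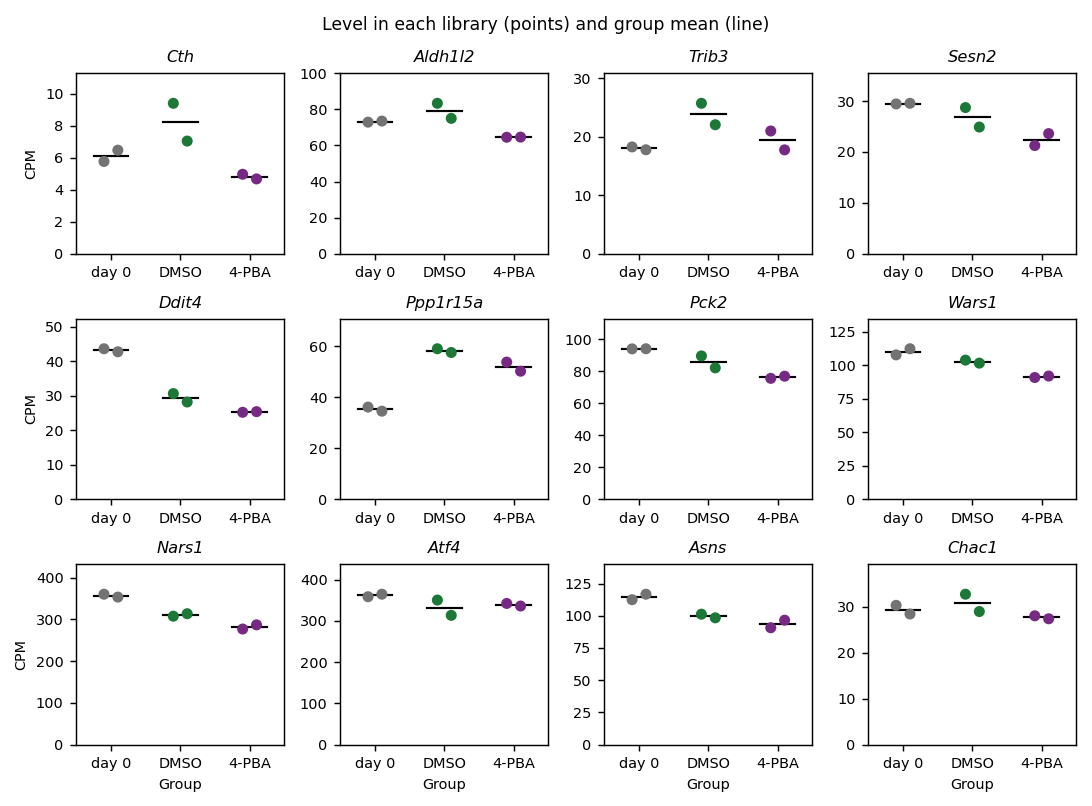
CPM in each library (points) and the group mean (lines) for the 9 genes called between 4-PBA and DMSO and for Atf4, Asns and Chac1, with day 0, DMSO and 4-PBA along each horizontal axis and axes from 0. Cth and Aldh1l2 are highest with DMSO and lowest with 4-PBA, Ppp1r15a stays above day 0 in both day 4 groups, and the 4-PBA points of Atf4 lie between its 2 DMSO points.

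Between 4-PBA at day 4 and day 0, which shares its day 0 libraries with the DMSO comparison, 33 of the 40 genes were called, 26 lower and 7 higher, where 65.6% of all tested genes were called, 32.4% lower and 33.2% higher. The median log2 fold change was -0.26, against 0.018 over all tested genes and -0.13 for the same 40 genes with DMSO, and 30 of the 40 lay below 0 where 48.8% of all tested genes did. The libraries did not overlap for 36 of the 40, with 4-PBA lower in 29 and higher in 7, where 81.8% of all tested genes were apart, 40.1% lower and 41.7% higher. Set beside the DMSO values, Aldh1l2 had -0.18 (SE 0.0457, adjusted p 7.57e-04) with 4-PBA and 0.11 with DMSO. Sesn2 had -0.40 (SE 0.0699, adjusted p 8.15e-06) and -0.14, and Nars1 had -0.34 (SE 0.0305) and -0.20. Trib3, which rose with DMSO, was not called with 4-PBA (0.11, SE 0.0834, adjusted p 0.274), and its value was -0.015 without 4-PBA replicate 1 and 0.22 (adjusted p 0.0416) without replicate 2. Cth fell against day 0 (-0.35, SE 0.135, adjusted p 0.0234), a call that DESeq2 did not make (adjusted p 0.0589) and that ended without day 0 replicate 2 (-0.26, adjusted p 0.218), 4-PBA replicate 1 (-0.39, adjusted p 0.0503) or 4-PBA replicate 2 (-0.31, adjusted p 0.114). For Atf4 the value was -0.093 (SE 0.0394, adjusted p 0.0467), which was not called without either day 0 library (-0.11 and -0.077), without either 4-PBA library (-0.10 and -0.078) or with a minimum mean of 1 CPM (-0.078). Atf5 (0.73, SE 0.0363), Asns (-0.29, SE 0.0390) and Fgf21 (5.06, SE 0.313) were called in the same direction as with DMSO, and Chac1 was not called (-0.082, SE 0.0644, adjusted p 0.272).

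The remaining calls between 4-PBA and day 0 are given by role, with the library values as above. Among regulators, Nupr1 was higher (log2 fold change 1.47, SE 0.0508), and Cebpb (-0.64, SE 0.0708) and Cebpg (-0.23, SE 0.0594) were lower. The call of Cebpg ended without 4-PBA replicate 1 (-0.13, adjusted p 0.108). Among effectors and hormones, Ppp1r15a (0.56, SE 0.0507) and Vldlr (1.18, SE 0.249) were higher, and Ddit4 (-0.77, SE 0.0583), Eif4ebp1 (-0.46, SE 0.0417) and Gdf15 (-1.64, SE 0.0668) were lower. All 6 serine and one-carbon enzymes were lower: beside Aldh1l2, they were Phgdh (-1.18, SE 0.0547), Psat1 (-0.75, SE 0.0322), Psph (-0.62, SE 0.0593), Shmt2 (-1.04, SE 0.0381) and Mthfd2 (-0.58, SE 0.0389). Pycr1 was higher (0.95, SE 0.0963) and Pck2 lower (-0.30, SE 0.0419). Of the transporters, Slc6a9 was higher (0.97, SE 0.0606), and Slc1a5 (-0.97, SE 0.0601), Slc7a1 (-0.39, SE 0.0483) and Slc1a4 (-0.26, SE 0.0532) were lower. Slc7a5 (-0.087, SE 0.0327, adjusted p 0.0196) and Slc38a2 (-0.081, SE 0.0300, adjusted p 0.0187) were called lower by small steps. Slc7a5 lost its call without day 0 replicate 1 (-0.070), 4-PBA replicate 1 (-0.072) or 4-PBA replicate 2 (-0.095), and Slc38a2 without day 0 replicate 2 (-0.050) or 4-PBA replicate 1 (-0.042). Of the synthetases, Aars1 (-0.36, SE 0.0329), Sars1 (-0.29, SE 0.0340), Wars1 (-0.27, SE 0.0377) and Gars1 (-0.20, SE 0.0307) were lower beside Nars1.

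Other genes of the pathway were described in the same way, and the genes named are those with the smallest adjusted p in each list, not the largest change. The shares of all tested genes to read them against are 4.90% called between 4-PBA and DMSO, 2.13% higher and 2.78% lower, and 33.8% higher and 32.6% lower between DMSO and day 0. None of 20 genes upstream of ATF4, among them the eIF2 kinases, eIF2 and eIF2B subunits, was called between 4-PBA and DMSO by edgeR, with a median log2 fold change of -0.021 and 2 genes at an unadjusted p under 0.05. Between DMSO and day 0, 12 of these 20 were lower and 2 higher, among them Eif2s1, the phosphorylated subunit of eIF2, from 178 and 181 CPM to 117 and 121 CPM (log2 fold change -0.59, SE 0.0347), and Ppp1r15b, the constitutive counterpart of Ppp1r15a (-0.56, SE 0.0374). The 2 phosphatase subunits thus went opposite ways in differentiation, since Ppp1r15a rose by 0.72. Of 15 other cytosolic synthetases 1 was called between 4-PBA and DMSO, Eprs1, for glutamate and proline (-0.11, SE 0.0310, adjusted p 0.0398), and of 17 mitochondrial ones none, with 2 at an unadjusted p under 0.05. Of 27 other amino acid and one-carbon enzymes edgeR called none with the drug, with 5 at an unadjusted p under 0.05, while 16 were lower and 4 higher between DMSO and day 0, among them the transaminase Bcat1 (-1.67, SE 0.0460) and the cytosolic folate enzyme Mthfd1 (-1.38, SE 0.0413). Of 16 other amino acid transporters tested 1 was called with the drug and was higher, the glutamate carrier Slc1a3, at 10.5 and 11.4 CPM in the DMSO libraries and 15.1 and 13.1 CPM in the drug libraries (0.36, SE 0.0814, adjusted p 0.00494). In differentiation 7 of these 16 rose and 4 fell, among them the taurine carrier Slc6a6 (1.34, SE 0.0279) and the glutamine carrier Slc38a1 (-1.21, SE 0.0396).

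Of 15 other stress genes linked to ATF4, 3 were called between 4-PBA and DMSO: Jdp2, an AP-1 repressor, and Sesn3, a paralog of Sesn2, were higher (0.17, SE 0.0415, adjusted p 0.0106 and 0.16, SE 0.0462, adjusted p 0.0352), and Ero1a, an oxidase of the endoplasmic reticulum, was lower (-0.16, SE 0.0468, adjusted p 0.0338). Sesn2 and Sesn3 were thus called in opposite directions with the drug, but the call of Sesn2 was not stable and that of Sesn3 was not refitted. Between DMSO and day 0, 10 of the 15 rose and 4 fell, among them the apoptosis gene Pmaip1 (1.81, SE 0.0492) and Klhl24 (1.71, SE 0.0451). For the chaperone arms of the same stress response, driven by ATF6 and XBP1, 2 of 18 genes were called with the drug, where 4.90% of all tested genes were. Sdf2l1 was higher (0.31, SE 0.0742, adjusted p 0.00979) and the sensor Ern1 lower (-0.15, SE 0.0447, adjusted p 0.0352), and the median was 0.036. In edgeR, an unadjusted p under 0.05 was found for 9 of the 18 and for 16.7% of all tested genes. Both 4-PBA libraries lay above both DMSO libraries for 9 of the 18 and below them for 2. The shares of all tested genes were 23.0% and 22.5%. Between DMSO and day 0, 7 of these 18 were higher and 8 lower, among them Sel1l (0.64) and Atf6 (0.67). The tests behind these counts were not set against one another, so no list is said to differ from the ATF4 genes.

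Scaled to exon length, the levels of these genes spanned a wide range. Lengths were the union of exons in GENCODE M21, so a gene with many long isoforms is placed too low. At day 0 Atf4 was the most abundant, at 153 CPM per kilobase, followed by Phgdh (118), Gars1 (90.2), Shmt2 (86.3), Psat1 (82.98) and Nars1 (82.0). With DMSO Atf4 was still at the top (141), followed by Atf5 (93.4), Gars1 (83.3), Nars1 (71.4) and Slc38a2 (60.0), and with 4-PBA the levels of these 5 were 144, 93.6, 78.6, 64.7 and 58.5. The serine enzymes Phgdh and Psat1 stood at 51.6 and 49.4 CPM per kilobase with DMSO. At the low end at day 0 were Cbs (0.0148), Vldlr (0.0926), Fgf21 (0.131), Slc7a3 (0.361) and Slc7a11 (0.686). Summed over the 41 genes, the level was 4862 and 4893 CPM at day 0, 4224 and 4115 CPM with DMSO against 3954 and 4045 CPM with 4-PBA, so both 4-PBA libraries lay below both DMSO libraries and these below day 0. Abundant genes weigh most in this sum. The largest means with DMSO were those of Slc38a2 (530 CPM), Atf4 (332 CPM) and Nars1 (311 CPM). Of these, only Nars1 was called between 4-PBA and DMSO.

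Genes with and without the composite motif in their promoter window are set side by side as a description. Of the 12 with it, 2 were called lower between 4-PBA and DMSO and the median log2 fold change was -0.14, and of the 20 tested genes with a window that lacked it, 3 were called lower and the median was -0.051. Between DMSO and day 0, 5 of the 12 rose and 5 fell, with a median of 0.13, and 3 of the 20 rose and 12 fell, with a median of -0.24. Over all tested genes, 2.78% were called lower with the drug and the median was 0.0021. Between DMSO and day 0, 33.8% of all tested genes rose and 32.6% fell, with a median of 0.023. The difference between genes with and without the motif was not tested. Cth, Aldh1l2, Nars1 and Wars1, which are 4 of the 9 genes called with the drug, were not among the genes with a window.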

How the data were processed

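Directional cDNA libraries were prepared from DNase-treated total RNA and sequenced on Illumina instruments, per the labels' protocols. The authors deposited raw counts per gene symbol, 1 column per library, not normalized. The build GRCm39 is named in the submitters' processing notes; aligner, counter, annotation and use of strand are not given in the sources used here. All libraries carry batch number 1.

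Tests used edgeR 4.0.16 under R 4.3.3: filterByExpr by group, TMM scaling, 1 mean per group over all 6 libraries, robust quasi-likelihood fit (3 residual degrees of freedom), Benjamini-Hochberg adjustment over 17433 genes. The fit shares the estimate of spread across genes, with a median of 30.4 prior degrees of freedom beside the 3 residual ones. The standard error is the log2 fold change divided by the square root of F. Total counts were 47908926 to 74697397. Replicates differed by more than sampling noise (chi-square per degree of freedom 3.88 to 7.05). Figures used matplotlib 3.10.9.

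All genes of the list are named; fold changes are printed for called genes and for Atf4, Atf5, Trib3, Asns and Chac1, and, in the other lists, for up to 3 called with the drug and 2 in differentiation with the smallest adjusted p. The genes, lists and tests were chosen with earlier results of these data known. Alternatives were DESeq2 1.42.0 (Wald test or size factors), limma-voom (limma 3.58.1), library size only, 2 other filters, only the 4 libraries compared, a replicate block, 2 stricter call rules and leaving out each library. The fit was first tested on simulated data, with the same spread for every gene and changes of 1.25-fold to 4-fold. Between 4-PBA and DMSO it called 43 of 50 genes changed 1.25-fold, with 8 false calls. Smaller changes, such as most of those called with 4-PBA, were not simulated.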

Additional observations from a re-analysis of the deposited data

How the results depend on the processing

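Between 4-PBA and DMSO, 9 genes were called (9 lower, 0 higher). With an adjusted p under 0.01 the count was 4, all lower, and with a change of at least 1.5-fold it was 1, Cth. When each library was left out in turn, the calls ranged from 3 to 16, those lower from 3 to 15 and those higher from 0 to 1; the last was Atf4 without DMSO replicate 1 and Cebpb without DMSO replicate 2. Without the filter on low counts 1 gene, Cebpb, was called higher. The median ranged from -0.11 to -0.061 when each library was left out. Between DMSO and day 0, a 1.5-fold minimum left 15 calls, 8 of them lower; the median was -0.16 with library size only and ranged from -0.15 to -0.071 on leaving out a library. Between 4-PBA and day 0, the minimum left 14 calls, 8 lower, and the median ranged from -0.30 to -0.24. Single genes of the list were refitted where they were called or were Atf4, Atf5, Trib3, Asns or Chac1. Other uncalled genes of the list were followed only for calls between 4-PBA and DMSO. Called genes of the other pathway lists were not refitted. Among those refitted, the sign turned for Atf4 (-0.046 to 0.11) and Atf5 (-0.028 to 0.035) between 4-PBA and DMSO, Chac1 (-0.016 to 0.16) between DMSO and day 0 and Trib3 (-0.015 to 0.22) between 4-PBA and day 0. A fit that leaves a group with 1 library assumes that it varies like the others. In each case the cause was not tested.

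The labels give only replicate numbers, and deviations of same-numbered libraries were not correlated (-0.028 to -0.0031). With the replicate number as a block, 9 genes were called between 4-PBA and DMSO, 32 between DMSO and day 0 and 33 between 4-PBA and day 0, and no call changed between 4-PBA and DMSO. Depth limits only Cbs, Fgf21 at day 0, Slc7a3 and Vldlr.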
